A study of Mus musculus with 46 samples.

Results

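AP-1 factor genes encode the basic leucine zipper proteins that pair through their zippers into the transcription factor AP-1. The set was fixed as a list of 10 genes, Fos, Fosb, Fosl1, Fosl2, Jun, Junb, Jund, Atf3, Batf3 and Maff, and all 10 were found among the 22225 protein-coding genes of the mouse GENCODE vM1 annotation on the mm9 genome. The rule names genes and has no threshold. For each gene, every ChIP-Seq peak that overlapped the span from 10 kb before the gene's start to 10 kb after its end was collected. The normalized tag counts of these peaks, in tags per 10 M mapped tags, were summed, and the length they covered was added up in kb.

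The peak lists came from mouse embryonic fibroblasts (MEFs), prepared from mid-gestation embryos that carry an IRES-EGFP cassette behind Oct4, from cells derived from them, and from an embryonic stem cell line of separate origin. Reprogramming was driven by pMXs retroviral vectors for Oct4, Sox2, Klf4 and c-Myc (OSKM), and the H3.3 libraries of this system were D0 (uninduced), D3, the successful route D6T- and D9T- (Thy-1 negative, days 6 and 9) and D12S+ and D16S+ (SSEA-1 positive, days 12 and 16), the unsuccessful route D6T+, D9T+, D12S- and D16S-, iPSCs, and that line, ESD3. Transdifferentiation towards blood progenitors was driven by Scl, Lmo2, Runx1 and Bmi1 (SLBR) and sampled as MEF (day 0), D4 and the sorted cKit+ and cKit- cells. H3.3 was mapped in all 16 of these populations, and H3K4me3 and H3K36me3 in the 7 populations D0, D3, D6T-, D9T-, D12S+, D16S+ and iPSCs. ESD3 is 1 established line, the sorted fractions still hold the factors' vectors, and D0 and MEF are both uninduced fibroblasts. D0 was sampled for reprogramming and MEF for transdifferentiation.

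Fos proteins do not pair with themselves and bind DNA as dimers with Jun proteins, while Jun proteins can also pair among themselves and with ATF proteins. The dimers bind the motif TGAGTCA, and several of the genes that encode them are classic immediate early genes, switched on within minutes by growth factors, serum and stress through MAP kinases. In fibroblasts AP-1 is among the most active transcription factors and occupies many fibroblast enhancers. H3.3 is the histone H3 variant that is placed into chromatin outside of DNA replication, H3K4me3 marks promoters, and H3K36me3 is laid down over transcribed gene bodies.

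Every population had 1 library per mark, so no value had a replicate, no test between 1 population and another was possible and no standard deviation could be given. The 95% Poisson intervals given below cover counting error only. "Lower" and "higher" denote a difference of at least 1 in log2(sum + 5), a 2-fold difference on that scale, and the count of members in a comparison is read against the share of all genes with a peak in either library that met the same rule.

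Control sequences of 4 members are shown first, because the letters of their promoters differ between family members. The 400 bases before each annotated start were searched on both strands in 22217 genes. The AP-1 motif TGAGTCA was found in 5.98% of all these promoters and in 0 of the 10 members. The cyclic AMP response element TGACGTCA was present in 2.10% of all promoters and in Maff, where it lay 50 to 43 bases before the start. The related letters TGACATCA, known as the Jun-type site of the Jun promoter, were in 3.46% of all promoters and in Jun, 45 to 38 bases before the start. A CArG box, the motif of the serum response factor, was in 2.25% of promoters and in Fos and Fosb. The GC box GGGCGG was in 42.9% of promoters and in 8 members, all but Junb and Jund. The lines below give 120 bases of mm9 on the gene's strand, with the named motif in capitals: Fos at chr12:86814500-86814619 and Fosb at chr7:19895585-19895704 (both intergenic, CArG box), Jun at chr4:94718914-94719033 (inside an intron of BC042782, TGACATCA) and Maff at chr15:79177851-79177970 (intergenic, TGACGTCA).
Fos promoter: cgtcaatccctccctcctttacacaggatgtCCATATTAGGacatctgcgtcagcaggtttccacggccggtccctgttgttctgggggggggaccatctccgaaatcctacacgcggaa
Fosb promoter: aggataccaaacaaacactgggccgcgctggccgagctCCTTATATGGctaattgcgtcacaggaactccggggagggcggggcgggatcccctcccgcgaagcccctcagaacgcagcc
Jun promoter: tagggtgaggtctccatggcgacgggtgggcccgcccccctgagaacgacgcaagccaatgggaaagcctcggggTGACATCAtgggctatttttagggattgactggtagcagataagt
Maff promoter: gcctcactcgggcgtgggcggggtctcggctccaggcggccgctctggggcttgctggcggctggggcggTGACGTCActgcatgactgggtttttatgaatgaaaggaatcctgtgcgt

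The remaining stretches carry AP-1 motifs inside member windows where H3.3 was recorded in D0. TGAGTCA, with its reverse complement TGACTCA, occurred 63 times in the 283 kb of the member windows, 0.222 per kb, against 0.171 per kb over the windows of all protein-coding genes. In D0, H3.3 peaks held 28 of the 63 (44.4%) and covered 43.1% of the members' bases, so motifs and bases were covered alike. Over all genes the D0 peaks held 13.7% of the motifs and covered 8.74% of the bases. In iPSCs 7 of the 63 (11.1%) lay in a peak while 19.99% of the members' bases did, and over all genes these shares were 7.68% and 6.64%. In ESD3 13 of the 63 (20.6%) did, 8 of them in the Junb window, against 9.79% of the members' bases. Over all genes the ESD3 peaks held 3.65% of the motifs and 3.00% of the bases. In D4 the count was 45 of 63 (71.4%), with 66.1% of the members' bases in a peak. Over all genes the D4 peaks held 25.1% of the motifs and 17.5% of the bases. Shown here are 3 motifs in Fosl1 introns (a at chr19:5449829-5449909, b at chr19:5450449-5450529, c at chr19:5451898-5451978), 3 in Fosl2 introns (a at chr5:32448786-32448866, b at chr5:32453273-32453353, c at chr5:32454851-32454931), all on the plus strand, and a cluster of 3 upstream of Junb (chr8:87509528-87509687, minus strand, intergenic). The capitals mark the AP-1 motif.
Fosl1 intron, site a: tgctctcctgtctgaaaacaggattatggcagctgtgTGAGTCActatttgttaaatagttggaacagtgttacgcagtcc
Fosl1 intron, site b: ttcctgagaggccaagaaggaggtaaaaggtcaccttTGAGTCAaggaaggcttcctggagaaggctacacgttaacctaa
Fosl1 intron, site c: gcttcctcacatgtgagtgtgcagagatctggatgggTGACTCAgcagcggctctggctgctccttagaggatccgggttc
Fosl2 intron, site a: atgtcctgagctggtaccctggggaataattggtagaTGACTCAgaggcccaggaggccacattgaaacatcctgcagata
Fosl2 intron, site b: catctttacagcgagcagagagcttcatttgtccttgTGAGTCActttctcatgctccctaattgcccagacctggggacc
Fosl2 intron, site c: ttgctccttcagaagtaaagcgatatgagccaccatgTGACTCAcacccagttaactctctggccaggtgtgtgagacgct
Junb upstream: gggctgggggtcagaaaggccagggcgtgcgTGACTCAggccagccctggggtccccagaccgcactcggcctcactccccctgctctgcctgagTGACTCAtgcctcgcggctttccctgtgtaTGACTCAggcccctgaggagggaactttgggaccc

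Of the 16 H3.3 libraries, the Fosl1 motifs a, b and c lay in a peak in 9, 12 and 10, the Fosl2 motifs in 5, 11 and 8, and the Junb cluster in 12. In iPSCs none of these motifs lay in a peak. Elsewhere in the Junb window 4 of its 9 motifs were still in a peak in iPSCs, and 0 of the 6 of Fosl2 were. Those 4 included a motif in an intron of Rnaseh2a and a motif in an intron of Prdx2. A match of letters is a description of the sequence and does not show that a factor was bound.

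The libraries differed in ways that bear on every sum below. Depth ranged from 13.2 to 91.8 M tags and the share of tags inside peaks from 1.07 to 42.4%. Among H3.3 libraries that share was 19.1% in D0, 14.0% in iPSCs, 4.88% in D16S+, 7.64% in MEF, 37.2% in D4, 1.65% in cKit+ and 2.31% in cKit-, and its part in the differences between libraries was not tested. Over the member windows H3.3 held 8.72 to 23.6 tags per kb of peak, a narrow range, while the covered length of a member ran from none to 59.9 kb, so larger sums went with longer covered lengths. The fibroblast markers fixed for this work (Thy1, Col1a1, Col1a2, Col3a1, Pdgfrb, Twist2, Prrx1 and Postn) summed to 4432 in D0 with 8 of 8 in a peak, 1373 in D3, 588 in D16S-, 49.6 in D16S+ and 136 in iPSCs with 3 of 8. The 8 pluripotent markers ran the other way, 124 in D0, 245 in D16S-, 1025 in D16S+, and 2103 and 1908 in iPSCs and ESD3. The 7 hematopoietic markers summed to 73.8 in cKit+ (5 of 7 in a peak) and to 271 in cKit- (6 of 7), a median difference of -1.37 beside -0.20 for all genes, and the fibroblast markers summed to 196 and 275.

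H3.3 over AP-1 factor genes was higher in D0 than at the pluripotent end. Summed over the 10 members, the tags were 2051 in D0 and 1310 in D3, 1858 and 1772 in the successful fractions of days 6 and 9, and 841 and 504 in those of days 12 and 16, with 783 in iPSCs and 449 in ESD3. In the unsuccessful fractions the sums of the 4 days were 1493, 1516, 2577 and 1787, and MEF held 1343, so every unsuccessful fraction lay above the late successful fractions, iPSCs and ESD3. From D0 to iPSCs 6 of the 10 members were lower, Fos, Fosl1, Fosl2, Jun, Batf3 and Maff, and none was higher, while 36.6% of all genes were lower and 22.8% higher. The median difference was -1.32 over the members and -0.44 over all genes. Because these are bulk populations, fewer cells with H3.3 at a gene and less H3.3 per cell cannot be told apart.

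**Figure D1:**
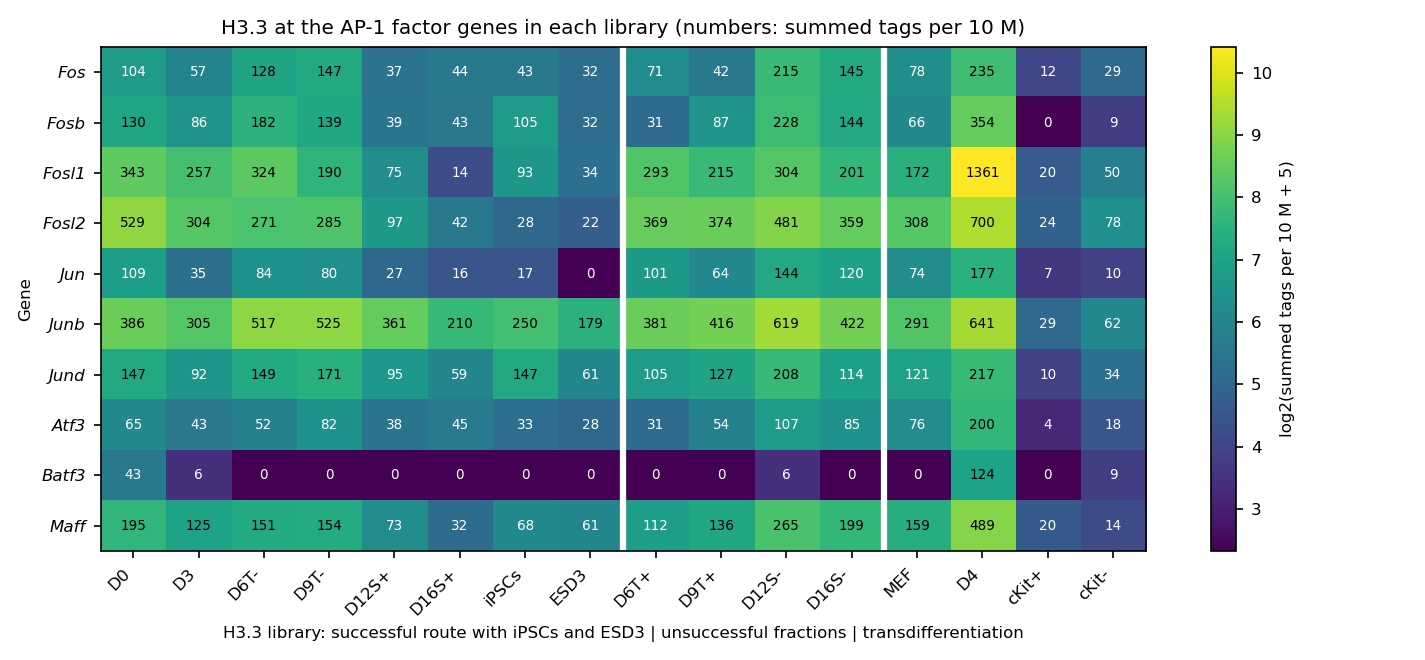
Heat map of the summed H3.3 tags per 10 M (printed in each cell, 0 where no peak was listed) for the 10 AP-1 factor genes (rows) in the 16 H3.3 libraries (columns, with white lines between the successful route with iPSCs and ESD3, the unsuccessful fractions and transdifferentiation), with colour giving log2 of the sum plus 5. Fosl2 runs from 529 tags in D0 to 27.6 in iPSCs and 22.2 in ESD3, while Junb holds 179 to 619 in the reprogramming libraries.

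Fosl2, which encodes Fra-2, a Fos protein without the strong activation domain of Fos, had the largest difference of the members from D0 to iPSCs after adding 5 tags. With 1 tag added Batf3, which had no peak in iPSCs, was larger (-5.47 against -4.21). Its H3.3 sum was 529 tags in D0 and 304 in D3, then 271 (D6T-), 285 (D9T-), 96.6 (D12S+) and 42.1 (D16S+) on the successful route, with 27.6 in iPSCs and 22.2 in ESD3. On the unsuccessful route it was 369 (D6T+), 374 (D9T+), 481 (D12S-) and 359 (D16S-). All 4 unsuccessful libraries, and MEF with 308, lay above every successful library from D3 on. The D0 interval (502 to 557) and the iPSC interval (22.8 to 33.2) were far apart, and the log2 difference of -4.03, a 16.4-fold lower value after adding 5 tags, was at percentile 3.09 of all genes with a peak. The covered length shrank from 29.6 to 2.35 kb and the tags per kb of peak from 17.9 to 11.7.

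Most of the D0 H3.3 of Fosl2 lay in the gene body, which is also the longest part of its window. In D0 the body beyond 1 kb from the start held 317 tags, the start (within 1 kb) 27.8, the upstream flank 65.4 and the downstream flank 118. A single peak of 20.7 kb at chr5:32445761-32466429 held 392 tags at 5.95-fold over input. It ran from 6.92 to 27.6 kb after the start, past the end of the 21.36 kb gene. In D16S- the body still held 271 tags. In iPSCs it held 6.68, the start held none, and the only sizeable remainder was 20.9 tags in the upstream flank, where the window also meets the neighbouring gene Gm10463. ESD3 had H3.3 in the upstream flank only, 22.2 tags.

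Fosl1 encodes Fra-1, the other Fos protein without that domain and a factor linked to cell motility. D0 held 343 tags of H3.3 there, D3 257, the successful fractions 324, 189.5, 74.6 and 13.9 in day order, iPSCs 92.9 and ESD3 34.2, while the unsuccessful fractions held 293, 215, 304 and 201. From day 12 on the successful fractions were thus below every unsuccessful one. The log2 difference from D0 to iPSCs was -1.83. In D0 a peak of 17.7 kb ran from 4.03 kb before to 13.7 kb after the start and held 322 of the tags, so the whole gene was covered. In iPSCs 8 peaks covered 7.80 kb, and the downstream flank, which the window shares with Ccdc85b, Fibp and Ctsw, held 58.0 tags. Counting only peaks whose nearest start was that of Fosl1 gave a log2 difference of -3.86, beside an all-gene median of -0.28 counted that way.

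Fos, the founding member, and Fosb, its closest relative, are among the immediate early members of the family. Per kb of window both held less H3.3 in D0 (3.58 and 4.74 tags) than Fosl1 (12.2) and Fosl2 (12.8). For Fos the sum was 104 tags in D0 and 57.5 in D3, it was 128, 147, 36.9 and 43.8 in the successful fractions of days 6, 9, 12 and 16, and 43.1 and 32.3 tags remained in iPSCs and ESD3. The highest value among the reprogramming libraries was 215 in D12S-. The log2 difference from D0 to iPSCs, -1.18, was lost when the flanks were left out (-0.27), with equal numbers of peaks per library (-0.80) and after centring on the median of all genes (-0.74). Fosb was close to equal at both ends, 129.5 tags in D0 over 8.39 kb and 105 in iPSCs over 8.69 kb, with intervals of 116 to 144 and 95.8 to 116. In ESD3 Fosb held 31.9 tags, close to the 39.3 in D12S+ and the 42.7 in D16S+, so iPSCs held more than these 3 libraries. Over all genes iPSCs were also above D16S+, by a median of 1.41, and above ESD3, by 0.93.

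Jun, the archetypal Jun protein and an activator, had a small window sum that fell away at the pluripotent end. It was 109 tags in D0 and 34.6 in D3, the successful fractions held 83.98, 80.3, 27.3 and 16.3 in day order, iPSCs held 17.0, and no peak was listed in ESD3. The unsuccessful libraries held 101, 63.7, 144 and 120 tags in day order. The log2 difference from D0 to iPSCs was -2.37, with intervals of 96.6 to 122 and 13.3 to 21.5, and the covered length went from 7.78 to 1.5 kb. Of the 10 members Jun had, after Batf3, the largest difference at D3 (-1.52).

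Junb, which encodes a weaker activator that can hold Jun in check, was within the 2-fold rule in iPSCs and lower by it in ESD3 (-1.09). The all-gene median from D0 to ESD3 was -1.37. The sums were 386 tags in D0 and 305 in D3, then 517 and 525 in the successful fractions of days 6 and 9, 361 and 209.7 in those of days 12 and 16, and 249.5 and 179 tags in iPSCs and ESD3. The difference from D0 to iPSCs was -0.62, below the 2-fold rule, and the covered length was 22.0 kb in D0 and 19.1 kb in iPSCs. Per kb of window Junb stood between percentiles 97.4 and 99.99 of all genes in the 16 H3.3 libraries, 99.8 in D0 and 99.4 in iPSCs. Fosl2, at percentile 99.2 per kb of window in D0, was at 53.1 in iPSCs, and Fosl1 went from 99.0 to 83.4. The window of Junb also reaches Rnaseh2a and Prdx2, and with only the peaks nearest its own start the difference to iPSCs was -1.98, over the gene body -2.29 and with peaks at least 4-fold over input -4.18. The all-gene medians under these settings were -0.28, -0.56 and -2.19.

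Jund, the broadly expressed Jun protein, was about equal at both ends, 147 tags in D0 (interval 133 to 163) and 147 in iPSCs (135 to 159), a log2 difference of -0.01 over 10.8 and 10.7 kb. ESD3 held 60.6 tags, 1.22 lower than D0 on the log2 scale. The all-gene medians were -0.44 from D0 to iPSCs and -1.37 from D0 to ESD3. Jund and Junb were also the members whose starts lay inside an H3.3 peak most often, each in 13 of 16 libraries. Fosl2 followed with 10, Fosb and Jun with 8, Atf3 with 5, Fos, Fosl1 and Maff with 4 and Batf3 with 1. How often the starts of all genes lay in a peak was not computed.

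Atf3, a stress-induced member that can act as a repressor, differed by -0.89 from D0 (65.1 tags) to iPSCs (32.8). All of its iPSC tags lay in 1 peak 4.04 to 1.45 kb before the start, and none in the gene, whereas 23.2 tags lay in the body in D0. Maff, a small Maf protein without an activation domain, was lower by 1.46, from 195 to 67.8 tags (intervals 179 to 212 and 60.1 to 76.2). In D0 106 of its tags lay downstream of the gene, where the window meets Tmem184b, and in iPSCs 13.2 did. Batf3, a factor of dendritic cells, had 3 peaks with 43.2 tags in D0, 1 peak of 6.00 tags in D3, and no listed peak in iPSCs, ESD3 or any library of the successful route after D3.

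**Figure D2:**
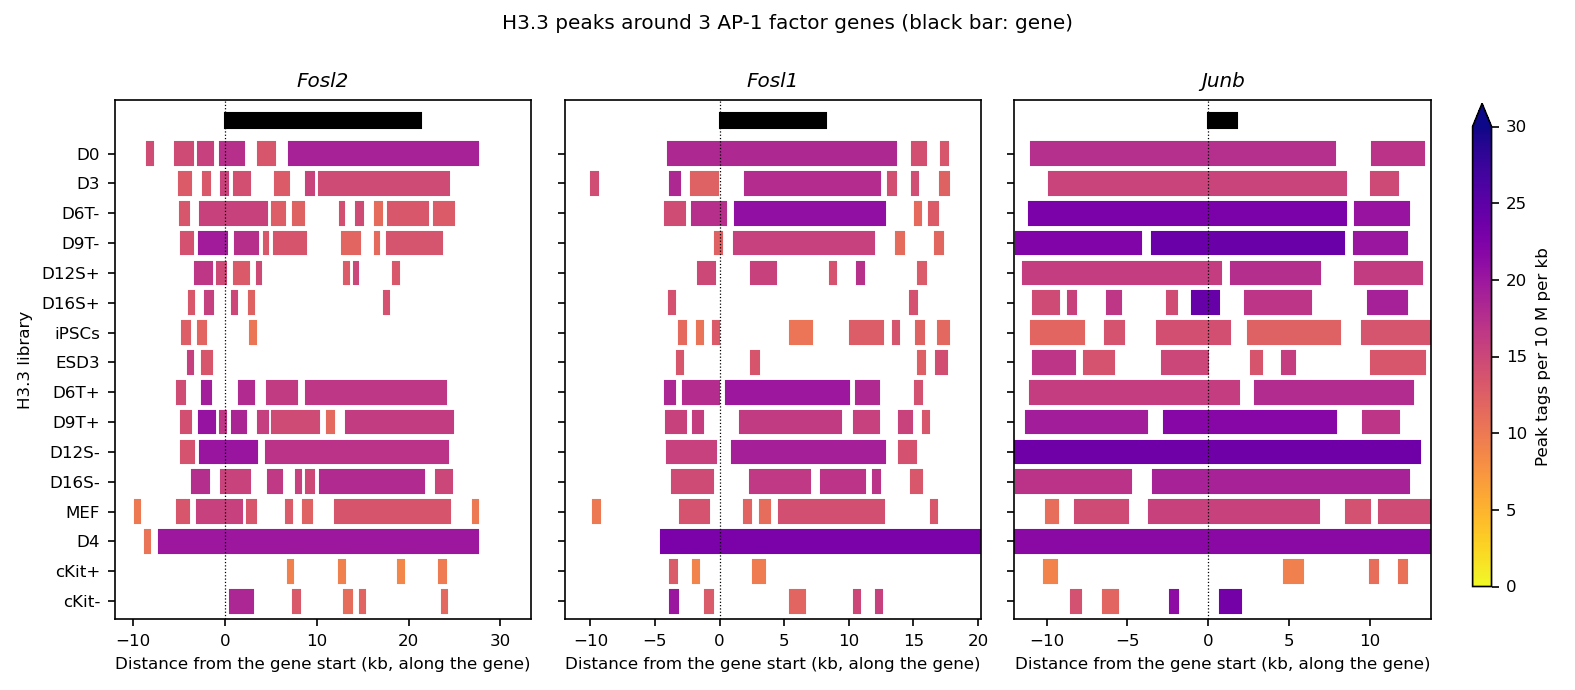
H3.3 peaks around Fosl2, Fosl1 and Junb in the 16 libraries (rows) by distance from the gene start in kb (horizontal axis, along the gene, black bar for the gene), with colour giving tags per 10 M per kb of peak. The 20.7 kb peak of Fosl2 in D0, which begins in the body and runs past the gene's end, has no counterpart in iPSCs or ESD3. Junb has peaks on both sides of its start in D0 and iPSCs.

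All 10 members were lower in ESD3 than in D0, as were 60.7% of all genes, with medians of -1.73 and -1.37. The largest differences were those of Jun (-4.51, no peak in ESD3), Fosl2 (-4.30), Batf3 (-3.27, no peak in ESD3) and Fosl1 (-3.15). D0 is the first library of both comparisons, so they are not independent of each other.

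The first step, D0 to D3, was small. All 10 members were below 0, as were 76.6% of all genes. By the 2-fold rule 2 of 10 (Jun and Batf3) were lower, and 33.5% of all genes were. The medians, -0.64 over the members and -0.58 over all genes, were almost the same. With the gene body only 4 members were lower (39.6% of all genes), and after centring 1 was (16.3%). To gauge how far 2 libraries of uninduced fibroblasts differ, D0 and MEF were compared the same way. Only Batf3, without a peak in MEF, was lower there, and the other members differed by -0.98 (Fosl1) to 0.20 (Atf3), a span that took in every D0 to D3 difference but those of Jun and Batf3. Over all genes MEF was lower than D0 in 63.8%, with a median of -1.31 against -0.46 for the members.

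Between D9T- and D12S+ on the successful route the sort also changes from Thy-1 to SSEA-1. Across this step 7 of the 9 members with a peak were lower, beside 51.4% of all genes, with medians of -1.29 and -1.03. Fosl2 went from 285 to 96.6 tags, Fosl1 from 189.5 to 74.6 and Fosb from 139 to 39.3. Junb (525 to 361) and Jund (171 to 95.1) stayed within 2-fold. By contrast, in D16S- 1 member (Batf3) was lower than in D0, against 36.3% of all genes, with medians of 0.08 and -0.53. By sign, 4 members were below 0 and 6 above. In D16S-, where the fibroblast markers summed to 588 tags, Fos held 145 tags, above its D0 value. Jun held 120 tags and Maff 199, both inside their D0 intervals given above. Fosl2 held 359 tags against 529 in D0, and Fosl1 201 against 343, both below D0 but within 2-fold.

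**Figure D3:**
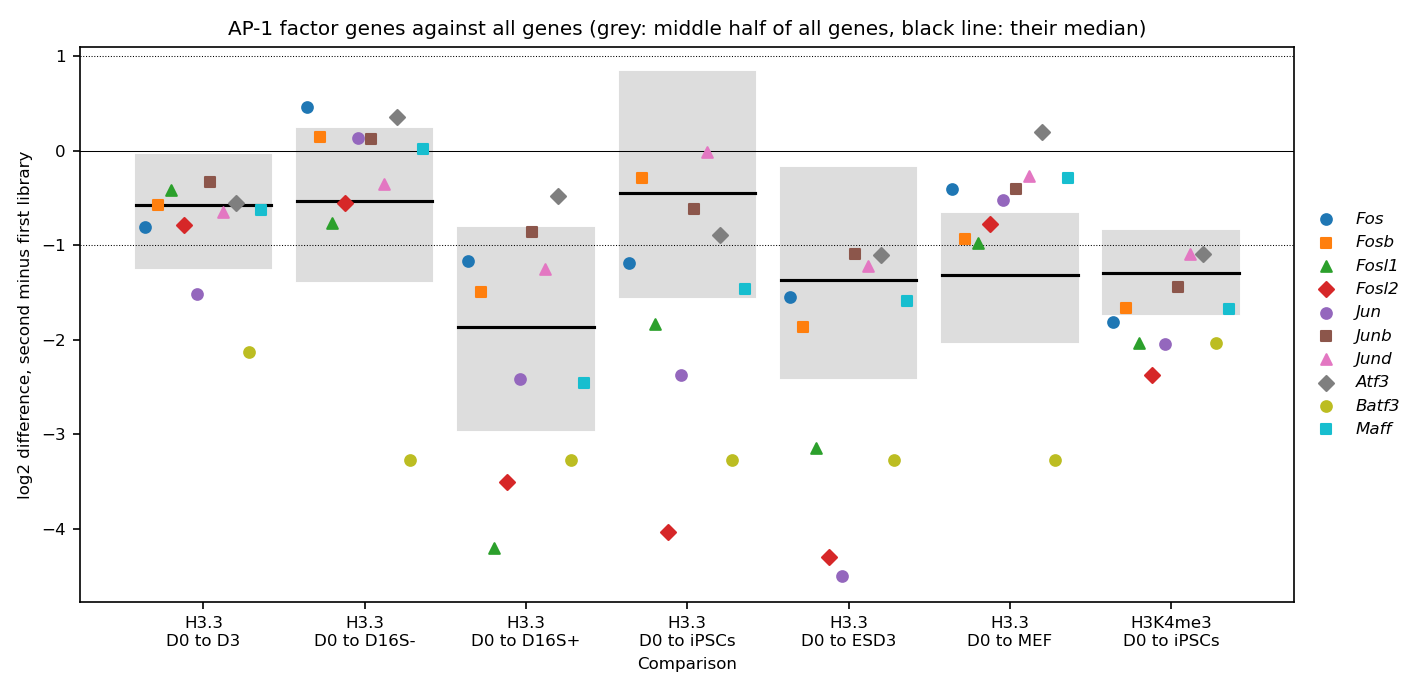
Log2 difference in summed tags plus 5 (vertical axis, second minus first library, dotted lines at the 2-fold rule) for each AP-1 factor gene in 6 H3.3 comparisons and 1 H3K4me3 comparison (horizontal axis), over the middle 50% of all genes (grey) and their median (black line). From D0 to iPSCs the H3.3 points run from -4.03 at Fosl2 to -0.01 at Jund around an all-gene median of -0.44.

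The sorted fractions ask whether cells on the successful and the unsuccessful route differ on the same day. At day 12, 9 of 10 members were lower in D12S+ than in D12S-, beside 77.3% of all genes, with medians of -1.88 and -1.60. At day 16, 6 of 9 were lower in D16S+ than in D16S-, beside 64.4%, with medians of -1.64 and -1.39. Over the 9 members with a peak on every day, the differences ran from -0.44 to 2.39 at day 6 and from -0.39 to 1.68 at day 9. Fosl2 was the 1 member of 9 with a lower value on the successful route on 4 of 4 days, -0.44, -0.39, -2.26 and -2.95, and 8.37% of 13997 genes did so. With peaks at least 4-fold over input 2 of 9 did, beside 18.9% of genes. For Fosl2 an exact permutation test that flips the signs of the 4 days (two-sided) gave p = 0.13, the smallest that 16 assignments allow, so this design cannot pass 0.05.

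Most other members changed side between the early and the late days. In 6 of 9 (Fos, Fosb, Junb, Jund, Atf3 and Maff) the successful fraction was above the unsuccessful one at days 6 and 9 and below it at days 12 and 16, as in 55.4% of all genes. For Fos the differences were 0.80, 1.68, -2.39 and -1.62, and for Fosb 2.39, 0.64, -2.39 and -1.64. Fosl1 (0.14, -0.18, -1.96 and -3.45) and Jun (-0.25, 0.31, -2.21 and -2.55) were near 0 early. The medians of all genes on the 4 days were 0.91, 0.30, -1.67 and -1.50, and on each day at least 7 of these 9 members had the sign of that median. At day 6 all of the 9 but Fosb lay below it. Fosl1, Fosl2 and Maff were below the median on all 4 days, 3 of 9 beside 13.4% of genes. With each day's median taken over the genes with a peak in either library of that day (0.92, 0.32, -1.60 and -1.39), Jun was below it on all 4 days as well, 4 of 9 beside 15% of genes.

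**Figure D4:**
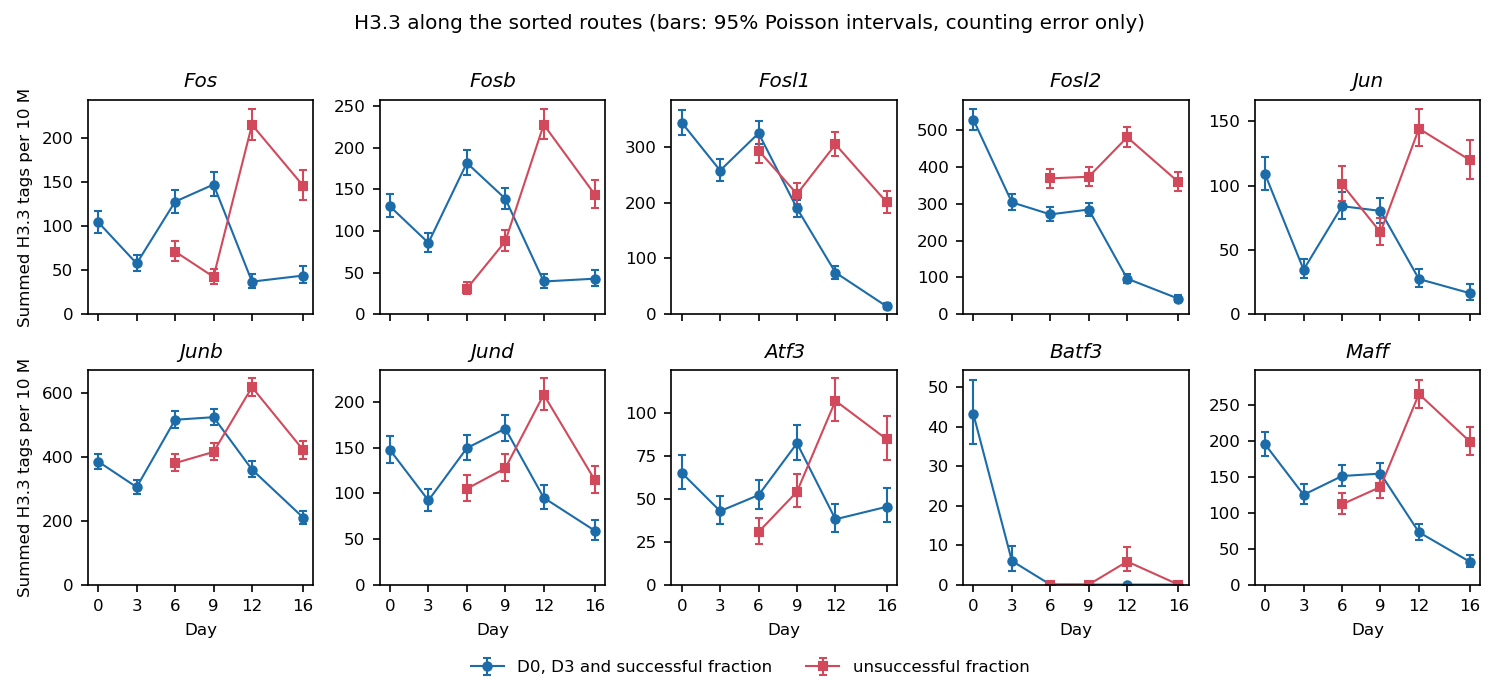
Summed H3.3 tags per 10 M (vertical axis, from 0, own scale per gene) by day (horizontal axis) for each AP-1 factor gene in D0, D3 and the successful fractions (blue circles) and in the unsuccessful fractions (red squares), with bars for 95% Poisson intervals that cover counting error only. The Fosl2 lines do not cross, with the successful fraction lower on all 4 sorted days, and the Fos lines cross between day 9 and day 12.

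Transdifferentiation gave larger differences, in libraries that also differed more in their share of tags in peaks. From MEF to D4, 9 of 10 members were higher, beside 93.3% of all genes, and their median of 1.44 was below the 2.41 of all genes. After centring on that median 1 member was higher, beside 18.1% of genes. Fosl1 went from 172 to 1361 tags, the largest H3.3 sum of any member in any library. That sum came from 1 peak of 59.9 kb (chr19:5443135-5503059) that runs through the neighbouring genes, and 518 tags fell inside the window of Fosl1. Fosl2 went from 308 to 699.9 tags and Maff from 159 to 489. Batf3 reached 124 tags over 10.0 kb in D4, its highest value, and D4 was the 1 library in which all 10 starts lay in an H3.3 peak. In D4 78.6% of all genes had an H3.3 peak in their window, and the share of all starts in a peak was not computed.

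From D4 to the sorted cells every member was lower in cKit+ (median -4.39, all genes -3.89, with 97.1% of genes lower) and in cKit- (median -3.23, all genes -3.73, with 95.5% lower). In cKit+ 2 of the 10 were lower after centring, beside 22.6% of genes. Between the sorted cells themselves, 7 of 10 members were lower in cKit+ than in cKit-, beside 26.9% of all genes, with medians of -1.20 and -0.20. Fosl2 had 24.2 tags in cKit+ and 78.2 in cKit-, Fosl1 19.8 and 49.8, Fosb none and 8.92, and Jund 10.2 and 34.0. Jun (7.41 and 10.2) and Junb (28.7 and 61.8) were within 2-fold, and Maff was above in cKit+ (19.5 and 13.6). Batf3 also had no peak in cKit+, and 9.31 tags in cKit-. These libraries had 1.65 and 2.31% of their tags in peaks, and no member's sum there passed 78.2 tags.

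H3K4me3 was high over most of the members in fibroblasts and lower over all of them in iPSCs. From D0 to iPSCs all 10 were lower, beside 68.1% of genes, with medians of -1.74 and -1.29, and 1 of the 10 was lower after centring on the all-gene median, beside 9.85% of genes. Junb held 942 tags in D0 and 345 in iPSCs, Fosl1 803 and 193, Fosl2 782 and 147, Jun 589.8 and 139, and Fos 584 and 163. In D0 449 tags at Junb and 370 at Fosl1 lay in the downstream flank. There the windows meet Prdx2 and Rnaseh2a (Junb) and Ccdc85b, Fibp and Ctsw (Fosl1). The D0 peaks over the starts of Junb and Fosl1 held 438 and 331 tags. Fosl2 had the largest difference (-2.37) and Jund the smallest (-1.09). The difference from D0 to D12S+ was of the same size, 10 of 10 beside 88.5% of genes, with medians of -1.66 and -1.63.

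All 10 starts were under an H3K4me3 peak in D0, and 9 of 10, all but Jund, in D3, D6T-, D9T-, D12S+ and iPSCs. Peaks within 1 kb of the Jund start still held 40.5 tags in D3, 71.2 in D6T- and 58.8 in D9T-. They held 6.02 in D12S+ and 19.6 in iPSCs, and none of them covered the start itself. In D16S+, which had 3.71% of its tags in peaks, 3 starts (Fosl1, Fosl2 and Jun) were covered. Of all genes, 76.1% had an H3K4me3 peak in their window in D0 and 60.1% in D16S+. The share of all starts under a peak was not computed. In iPSCs the Fosl2 start thus carried H3K4me3 (147 tags over 5.86 kb) while no H3.3 peak reached the start and the body held 6.68 tags of H3.3.

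H3K36me3, the mark of transcribed bodies, had a peak in the windows of 8 members in D9T-, the most of any library, and of 1 in D16S+. The shares of all genes with a peak were 59.5% in D9T- and 33.6% in D16S+. In D0 5 members had a peak, beside 59.3% of all genes. These were Fosl2 with 515 tags over 17.9 kb, Fosl1 with 209 over 10.9 kb, Maff with 70.7, Fos with 38.3 and Jun with 6.11. From D0 to iPSCs Fosl1 (209 to 14.4), Fosl2 (515 to 72.9) and Maff (70.7 to 32.1) were lower, 3 of the 6 members with a peak beside 88.9% of genes, with medians of -0.49 and -3.11, and 0 members were lower after centring, beside 27.5%. Junb was higher, as were 5.49% of genes, with no peak in D0 and 9.68 tags in iPSCs. Fos (38.3 and 39.7) and Jun (6.11 and 7.0) held about equal amounts in both. The highest H3K36me3 sum of Junb was in D9T- (78.6), and Jund and Batf3 had none in any library. The Junb tags of D9T- and iPSCs all lay downstream of the gene, where the window meets Prdx2 and Rnaseh2a. The D0 tags of Maff all lay downstream too, on the side of Tmem184b, and the 8.04 tags of Jun in D9T- lay upstream. With the gene body only, Fosl1 and Fosl2 were lower in iPSCs than D0, 2 of 5 members beside 87.8% of genes. The share of H3K36me3 tags in peaks was 31.3% in D0, 1.07% in D12S+ and 2.88% in iPSCs, and the D6T- library had an estimated fragment length of 444 bp.

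**Figure D5:**
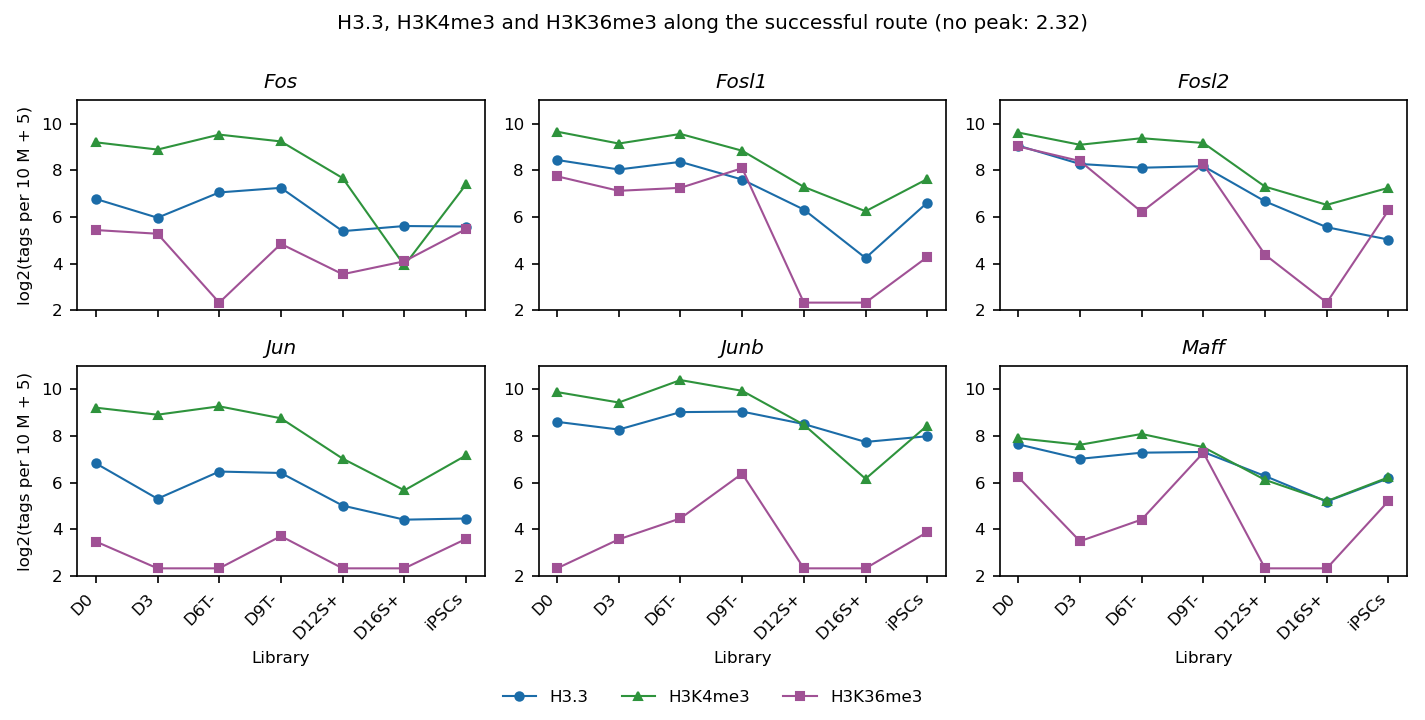
H3.3, H3K4me3 and H3K36me3 of Fos, Fosl1, Fosl2, Jun, Junb and Maff (vertical axis, log2 of summed tags per 10 M plus 5) in D0, D3, D6T-, D9T-, D12S+, D16S+ and iPSCs (horizontal axis), with a library without a peak drawn at the log2 of 5. In D0 H3K4me3 is the highest mark over all 6 genes, and H3K36me3 comes near H3.3 at Fosl2 (515 and 529 tags).

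The wider pathway was described from lists fixed with earlier results known. Of 21 other AP-1 and bZIP partner genes, 20 had an H3.3 peak in D0 or iPSCs, 7 were lower in iPSCs and 2 higher, with a median of -0.76, beside 36.6% lower and 22.8% higher of all genes. Those with the largest differences were Bach2 (452 to 10.3 tags), a repressor that pairs with small Maf proteins, Creb5 (133 tags, no peak in iPSCs), Mafk (156 to 37.5) and Bach1 (306 to 87.1). Of 19 MAP kinase cascade genes 4 were lower and 2 higher (median -0.38), with Map2k4, a kinase of the JNK branch, at 230.04 and 12.8 tags, Mapk10, which encodes a JNK, at 34.7 tags and no peak in iPSCs, and Map3k5, a stress-activated kinase, at 67.7 and 365. The median of the cascade list was close to the all-gene median of -0.44.

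Genes at the ends of the pathway stood further from that median. Of 24 immediate early and feedback genes 14 were lower and none higher (median -1.22, against 36.6% and 22.8% of all genes), among them Ier5 (278 to 14.1 tags), Mkl1, the actin-regulated cofactor of serum response factor (1824 to 229), Dusp4, a MAP kinase phosphatase (324 to 45.2), and Btg2 (203 to 30.9). Of the 19 AP-1 targets of fibroblasts with a peak, 15 were lower and none higher (median -2.35). Cd44 went from 1501 to 20.5 tags and Plau, the urokinase gene, from 351 to 17.1, while Ccl2 (257 in D0) and Lox (228 in D0) had no peak in iPSCs. Many of these targets are fibroblast genes in their own right, and the fibroblast markers moved with them, from 4432 to 136 tags, and their part in the counts was not tested.

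Junb, with 4568 tags over the 12 reprogramming libraries, had the largest sum of the members, and it was used to look for genes with a like pattern. Of 15068 genes with a peak in at least 6 of these libraries and a start more than 200 kb away, Ntn4, Fdft1 and Sema3b were the most alike, each with a Spearman rho of 0.993 over the 12 libraries. These points share the depth and peak number of each library, and with 1 library per population the likeness is a description only. Ntn4 had no H3.3 peak in ESD3 (13.6 tags in iPSCs), whereas Junb held 179 tags there, so the order of the libraries was shared and not the range.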

How the data were processed

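MEFs, reprogramming intermediates, iPSCs, ESD3 cells and cells under transdifferentiation were profiled by ChIP-Seq for H3.3, H3K4me3 and H3K36me3. The authors mapped reads to mm9 with STAR, removed reads with more than 2 mismatches or several positions, and called peaks against input with HOMER findPeaks in histone style, per library and without pooling, at a fold over input of at least 2 for H3.3 and 4 for the other marks. Their tool versions are not given in the sources used here. The deposited lists give each peak's signal as a normalized tag count per 10 M tags, and a fold, the ratio of that count to input. Of 46 samples, 30 had a peak list and 16 were inputs, which entered only through the authors' peak calling.

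Peaks were joined to gene windows (GENCODE vM1, gene span with 10 kb on each side) and the tag counts of overlapping peaks were summed without scaling to the share inside the window. Differences are log2((second + 5)/(first + 5)) over genes with a peak in either library, and "lower" or "higher" means a difference of at least 1. Poisson intervals (95%) were computed from the sum times the depth of the library and cover counting error only. Successful and unsuccessful fractions were compared over 4 days with an exact sign-flip permutation test. Depth was 13.2 to 91.8 M tags. Summing was tested on simulated peaks with known sums. All 10 members are named, and pathway genes by the largest difference within their list, up to 4 per list. The members and lists were chosen with earlier results of these data known. The 7 alternatives tried are in the closing section. Promoter and motif sequences were read from the mm9 genome. Python 3.11.15, pandas 2.3.3, scipy 1.17.1 and pysam 0.24.0 were used.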

Additional observations from a re-analysis of the deposited data

Results flagged for a closer look

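Over 6 AP-1 factor genes the sign of the difference in H3.3 between the successful and the unsuccessful fraction was positive on both early days (6 and 9) and negative on both late days (12 and 16). The mean of the late days minus the mean of the early days, on the log2 scale, was -3.25 for Fos, -3.53 for Fosb, -1.26 for Junb, -1.44 for Jund, -1.73 for Atf3 and -2.44 for Maff. Each day has 1 library per fraction and the sort changes from Thy-1 to SSEA-1 between day 9 and day 12, so this difference was not tested, and time and sort cannot be told apart. The median of all genes with a peak in all 4 pairs was -2.25, so Junb, Jund and Atf3 lay above it and Fos, Fosb and Maff below it.

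The first days of the 2 conversions went opposite ways, over the members as over most genes. All 10 members were below 0 from D0 to D3 of reprogramming, as were 76.6% of all genes. From MEF to D4 of transdifferentiation all 10 were above 0, and 2.03% of all genes were below 0. The median over members of the second difference minus the first was 2.28 on the log2 scale. This difference was not tested, since each step rests on 1 library per side. The all-gene medians of the steps were -0.58 and 2.41, and the share of tags in peaks was 19.1% in D0, 11.3% in D3, 7.64% in MEF and 37.2% in D4.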

How the results depend on the processing

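Each count was recomputed under 6 or 7 alternatives: the gene body only, peak scores scaled to the window, equal numbers of top-scoring peaks per library, a fold over input of at least 4, a pseudocount of 1, centring on the median of all genes, and only peaks nearest the member's own start. The fold alternative was not run for transdifferentiation, H3K4me3 and H3K36me3. Of 45 recomputed counts 37 were within 1.5 times the reported one. The 6 members lower in iPSCs than D0 became 5 after centring (26.8% of all genes) and up to 9 with the fold alternative (75.3%). Centring moved 6 counts: members lower in D3 than D0 from 2 to 1, higher in D4 than MEF from 9 to 1, lower in cKit+ than D4 from 10 to 2, lower in iPSCs than D0 from 10 to 1 for H3K4me3 and from 3 to 0 for H3K36me3, and lower on the successful route on 4 of 4 days from 1 to 4, or to 3 with medians over the 13997 genes with a peak in all 4 pairs. The all-gene shares moved with these counts, to 9.85 to 27.5% after centring. With the gene body only 4 members were lower in D3 (39.6% of genes), and with the fold alternative 2 were lower on all 4 days (18.9%).

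Of 70 recomputed D0 to iPSC differences 61 kept their side of the 2-fold rule, 3 (all Fos) fell inside it, 6 (Fosb, Junb and Atf3) passed it, and 0 of the called ones reversed. Fosl2 ran from -6.71 to -3.59. Among uncalled differences the sign changed for Atf3 with equal peak numbers (0.70), for Fosb after centring (0.16) and for Jund under 4 alternatives. The causes were not tested. No paired analysis by replicate was possible because every group has 1 library and the labels carry no replicate numbers, and the fractions were paired by day of sorting in the test over 4 days. For the same reason no library could be left out within a group, and depth limits low sums such as the 6.00 tags of Batf3 in D3.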
